A study of Homo sapiens with 10 samples.

Results

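The 10 genes described here are a list of Notch pathway genes, given by name: the ligands DLL1, DLL3, JAG1 and JAG2, the receptors NOTCH1, NOTCH2 and NOTCH3, and the targets HES1, HES5 and HEY1. All 10 are listed in both deposited count tables, which together hold 24050 genes. RNA-seq was performed on HEK293T cells, a line derived from human embryonic kidney, and on neural progenitor cells (NPCs) differentiated from H1 embryonic stem cells (ESCs), each as wild type (WT) and after knockout (KO) of ZNF274, a zinc finger protein that binds DNA. There were 3 libraries of WT (S15, S16 and S17) and 3 of ZNF274KO (S18, S19 and S20) HEK293T cells, and 2 of WT (S3 and S5) and 2 of ZNF274KO (S1 and S2) NPCs. The KO was made with CRISPR-Cas9 and a pair of guides on either side of the gene, in HEK293T cells sorted as single cells and in ESCs picked as single colonies, before differentiation. Per the series, replicates came from independent WT and KO clones, but no label says which clone gave which library, so P values measure the spread between these libraries.

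Notch signaling passes between neighboring cells. A ligand on one cell binds a receptor on the next, ADAM proteases and gamma-secretase cut the receptor, and its intracellular domain joins RBPJ and a MAML coactivator in the nucleus to activate genes such as HES1, HES5 and HEY1, which encode basic helix-loop-helix repressors. In neural progenitors the pathway is known for holding cells back from neuronal differentiation.

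The libraries held 18621266 to 32285876 counts on genes. Levels are given as CPM, the read count of a gene scaled to library size, here after TMM normalization over the 10 libraries, and 3 counts, the level taken as the floor, correspond to 0.0916 to 0.154 CPM. ZNF274 was at 14.6 to 16.6 CPM in WT HEK293T cells, at 23.3 and 25.4 CPM in WT NPCs, and had 0 counts in every KO library. KO HEK293T library S18 stood apart from S19 and S20, with an SD of the log2 ratio over genes of 0.597 and 0.587 against 0.329 between the other pair. In WT NPCs this SD was 0.487 and in KO NPCs 0.254. In bulk RNA, fewer cells of a type and less RNA per cell cannot be told apart.

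The NPC label was checked against markers. WT NPCs had 228 and 219 CPM of SOX2 and 88.2 and 78.5 CPM of PAX6, both transcription factors of neural progenitors. In KO NPCs, of 12 neural progenitor markers 9 were lower and 0 higher by the thresholds given below, SOX2 was at 12.8 and 21.5 CPM, and SIX3 had 0 counts in both libraries. The summed level of these markers was 3661 to 4808 CPM in WT and 3702 to 3707 CPM in KO NPCs, and most of it was NES, an intermediate filament gene that was not called (2272 and 2998 CPM in WT, 3205 and 3143 CPM in KO). Of 9 neuron markers 4 were lower and 1 was higher, and their summed level was 1262 to 1278 CPM in WT and 172 to 231 CPM in KO NPCs. Of 11 mesenchyme markers tested 6 were higher and 0 lower (summed level 1356 to 2354 CPM in WT, 5608 to 6584 CPM in KO). For 7 neural crest markers these numbers were 3 and 0 (43.8 to 66.2 CPM in WT, 225 to 299 CPM in KO), and for 7 smooth muscle and pericyte markers 2 and 1 (1582 to 1848 CPM in WT, 4134 to 4185 CPM in KO). Only 3 of these 7 smooth muscle and pericyte markers had a log2 FC above 0 (median -0.19), so their sum rose through part of the list. Of 6 endothelial markers 3 were higher and 1 was lower (49.4 to 176 CPM in WT, 88.9 to 117 CPM in KO), and of 6 epithelial ones 2 were higher and 0 lower (348 to 603 CPM in WT, 1318 to 1498 CPM in KO). The sum of 5 embryonic kidney markers, of which 1 was called higher, was 8.60 to 25.1 CPM in WT and 96.6 to 140 CPM in KO. The sum of the pluripotency markers, of which 1 of 3 tested was called lower, was 144 to 158 CPM in WT and 75.4 to 88.1 CPM in KO. These values move with every KO result in NPCs given below, and their part in those results was not tested.

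WT HEK293T cells and WT NPCs differed in which Notch ligand they held. JAG1 dominated in NPCs, whereas HEK293T cells held DLL3 and JAG2 and little JAG1. DLL1 and JAG1 are ligands that activate receptors in trans, JAG2 is the second Jagged ligand, and DLL3 is a divergent member that acts mainly within its own cell. To answer how the cell types differ, the WT groups were contrasted within a single edgeR quasi-likelihood fit of all 10 libraries. Genes were called when the Benjamini-Hochberg adjusted P value was below 0.05 and the fold change (FC) above 2. Cell type and any batch that goes with it cannot be told apart here. Of 12 neural progenitor markers 10 were called higher and 1 lower in WT NPCs, of 9 neuron markers 6 and 1, of 11 mesenchyme markers 8 and 2, of 7 smooth muscle and pericyte markers 6 and 0, and of 6 endothelial markers 6 and 0. In WT HEK293T cells these 5 lists summed to 240 to 265, 29.0 to 36.4, 31.3 to 35.2, 12.1 to 15.5 and 0.331 to 0.654 CPM, against the WT NPC sums above. Of 6 epithelial markers 4 were higher and 1 lower, of 5 embryonic kidney markers 1 and 2, and of 6 neural crest markers 1 and 2. The part of these markers in the differences of the Notch genes was not tested. Of the 19255 genes tested, 25.2% were called higher and 15.5% lower in WT NPCs. Of the 10 Notch genes, 4 were called higher (JAG1, NOTCH1, NOTCH3 and HES1) and 4 lower (DLL1, DLL3, JAG2 and HEY1).

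JAG1 (ENSG00000101384, hg19 chr20:10618332-10654647) was at 2.35, 2.58 and 2.09 CPM in WT HEK293T libraries and at 138 and 192 CPM in WT NPC libraries. The groups lay far apart, with NPCs 70.4-fold higher (log2 FC 6.14, standard error 0.265, adjusted p = 5.04e-09). JAG2 (ENSG00000184916, chr14:105607319-105635161) was at 13.3, 6.54 and 6.72 CPM in WT HEK293T cells and at 1.09 and 0.922 CPM in WT NPCs (log2 FC -3.13, standard error 0.421, adjusted p = 4.55e-05). Library S15 held about as much JAG2 as the KO HEK293T libraries, and every NPC library was below every HEK293T library.

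DLL3 (ENSG00000090932, chr19:39989535-39999121) was at 6.16, 5.65 and 4.66 CPM in WT HEK293T cells and at 0.903 and 1.38 CPM in WT NPCs (log2 FC -2.26, standard error 0.360, adjusted p = 0.000173). DLL1 (ENSG00000198719, chr6:170591294-170615653) was at 1.72, 1.93 and 1.92 CPM in WT HEK293T cells and at 0.238 and 0.615 CPM in WT NPCs (log2 FC -2.12, standard error 0.463, adjusted p = 0.00179). Both genes were lower in each NPC library than in any HEK293T library, but the NPC values of DLL1 rest on 5 and 12 counts.

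Of the 3 receptors, NOTCH1 and NOTCH3 were called higher in WT NPCs. NOTCH1 (ENSG00000148400, chr9:139388885-139440500), a broadly expressed receptor, was at 15.4, 11.3 and 8.94 CPM in WT HEK293T cells and at 43.0 and 55.4 CPM in WT NPCs (log2 FC 2.05, standard error 0.220, adjusted p = 7.30e-06). NOTCH3 (ENSG00000074181, chr19:15269849-15311806), best known from vascular smooth muscle and pericytes, was at 39.6, 36.7 and 41.9 CPM in WT HEK293T cells and at 177 and 197 CPM in WT NPCs (log2 FC 2.25, standard error 0.302, adjusted p = 4.60e-05). NOTCH2 (ENSG00000134250, chr1:120454176-120643366) was at 161, 168 and 161 CPM in WT HEK293T cells and at 268 and 216 CPM in WT NPCs. The groups did not overlap, but the difference was 1.48-fold (log2 FC 0.56, standard error 0.122, adjusted p = 0.00168) and stayed under the FC threshold. The authors counted uniquely mapped reads, which can lose reads of NOTCH2 to its near-identical NOTCH2NL copies, so its level is uncertain.

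Among the targets, the cell types differed in opposite directions. HEY1 (ENSG00000164683, chr8:80674606-80680092) was at 261, 338 and 306 CPM in WT HEK293T cells and at 10.9 and 7.73 CPM in WT NPCs, 32.4-fold lower (log2 FC -5.02, standard error 0.248, adjusted p = 1.38e-08). HES1 (ENSG00000114315, chr3:193853937-193856521) was at 24.8, 19.1 and 21.4 CPM in WT HEK293T cells and at 55.01 and 55.8 CPM in WT NPCs (log2 FC 1.35, standard error 0.283, adjusted p = 0.00138). HES5 (ENSG00000197921, chr1:2460184-2461702), a target known from neural progenitors, had 2, 3 and 4 counts in WT HEK293T cells and 6 and 4 counts in WT NPCs. At this depth no difference in HES5 was detectable (log2 FC 1.24, 95% confidence interval -1.61 to 4.08, adjusted p = 0.440).

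**Figure D1:**
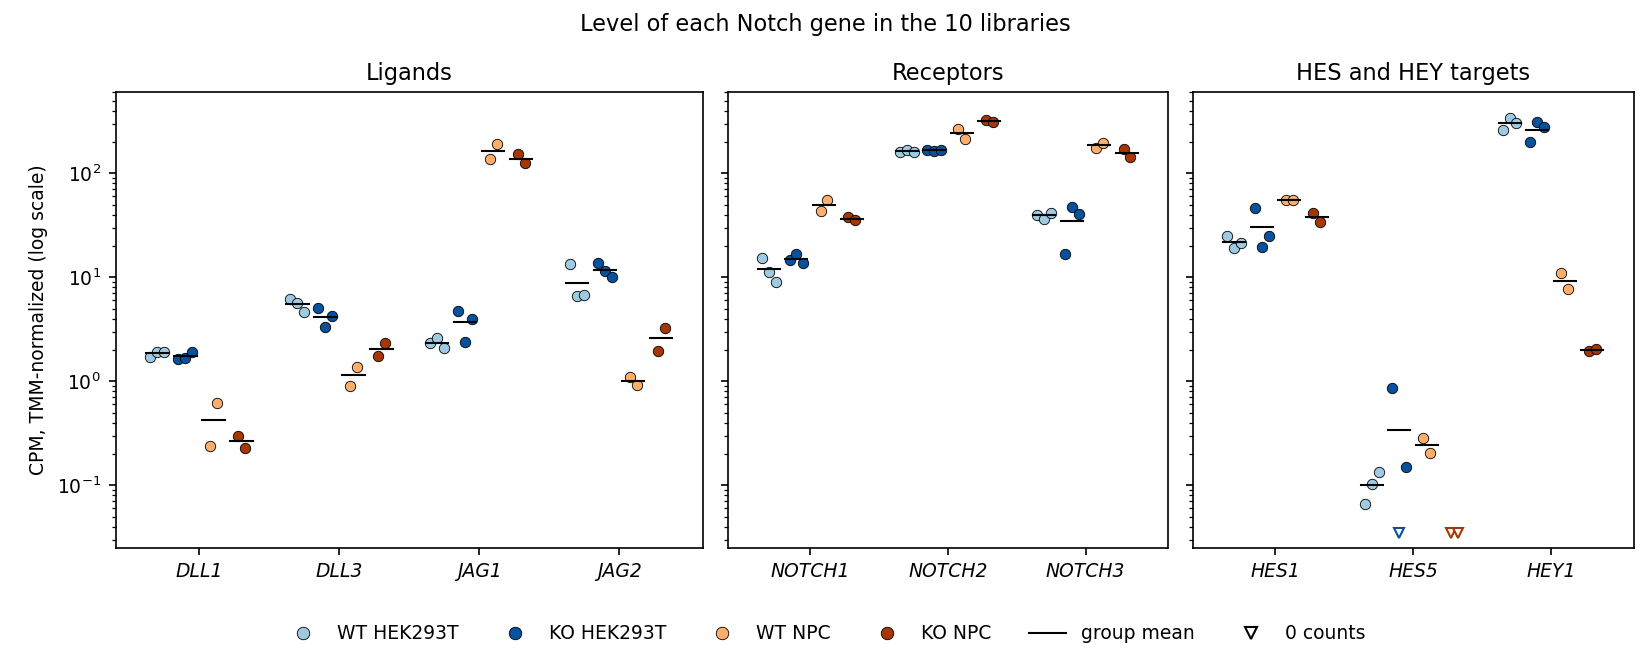
Level of each Notch gene in every library, in CPM on a log axis, grouped by role; each point is 1 library, bars are group means and open triangles are libraries with 0 counts. JAG1 is near 2 CPM in WT HEK293T cells and above 138 CPM in WT NPCs, HEY1 runs the other way, and HES5 is below 0.87 CPM throughout.

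The upstream bases of HES1 and HES5 are shown because both genes are textbook RBPJ targets, which differed from each other in level in every library. Of the 10 genes, 7 have a promoter in the RefSeq table (build GRCh38.p14). The 250 bases before the start were searched on both strands for TGGGAA, the core of the RBPJ site, which 20.8% of the 35116 promoters in the table hold. HES1 and HES5 hold 2 copies each, and JAG1, JAG2, NOTCH1, NOTCH2 and NOTCH3 hold 0. In HES1 both copies run in the direction of transcription and begin 84 and 70 bases before the start. In HES5 1 copy runs in that direction and begins 80 bases before the start, and the other is on the opposite strand and begins 224 bases before it. Both sequences match hg19 exactly, HES1 on the + strand at chr3:193853687-193853936 and HES5 on the - strand at chr1:2461703-2461952. They are printed 5′ to 3′ along the gene, with the TGGGAA word (TTCCCA on the opposite strand) in capitals.
HES1: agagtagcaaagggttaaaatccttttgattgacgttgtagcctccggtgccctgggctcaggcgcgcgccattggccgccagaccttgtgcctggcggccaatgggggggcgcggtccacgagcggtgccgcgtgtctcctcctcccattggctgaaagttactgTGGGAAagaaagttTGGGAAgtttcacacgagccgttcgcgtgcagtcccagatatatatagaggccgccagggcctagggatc
HES5: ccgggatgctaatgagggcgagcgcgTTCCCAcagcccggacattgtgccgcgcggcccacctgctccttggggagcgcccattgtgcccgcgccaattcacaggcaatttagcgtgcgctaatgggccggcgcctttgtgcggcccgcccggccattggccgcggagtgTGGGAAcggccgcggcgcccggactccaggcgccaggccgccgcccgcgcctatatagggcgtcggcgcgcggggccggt

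HES proteins bind the N-box CACNAG and the E-box CACGTG. The N-box letters occur 3 times in HES1, 1 time in NOTCH3 and 0 times in HES5, JAG1, JAG2, NOTCH1 and NOTCH2, and 32% of all promoters hold them. The E-box letters occur in 0 of the 7 promoters and in 6.34% of all. None of the 3 words overlaps another in HES1 or HES5. A match is a description of letters only.

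Levels of different genes were compared per kilobase of exonic length. The log2 ratio of a library to the others of its group varied with transcript length (Spearman correlation -0.224 in S15 to 0.314 in S16). This was not corrected. In WT HEK293T cells HEY1 led with 54.98 ± 7.07 CPM per kb (SD, n = 3), followed by HES1 with 10.6 ± 1.38 and NOTCH2 with 9.76 ± 0.251, which did not differ beyond their spread. NOTCH3 came next with 4.19 ± 0.279 CPM per kb. Below it were DLL3 with 2.10 ± 0.293, JAG2 with 1.38 ± 0.601 and NOTCH1 with 0.948 ± 0.260. JAG2 overlapped both DLL3 and NOTCH1 within 1 SD. DLL1 with 0.487 ± 0.0307, JAG1 with 0.252 ± 0.0264 and HES5 with 0.0767 ± 0.0260 CPM per kb were lowest. In KO HEK293T cells HEY1 (48.0 ± 10.1 CPM per kb) again led and HES5 (0.256 ± 0.350) again had the lowest mean. In S18, however, HES5 (0.655 CPM per kb) stood above JAG1 (0.508) and DLL1 (0.431). HES1 (14.7 ± 6.81 CPM per kb) reached 22.4 in S18 but was below NOTCH2 in S19 (9.55 against 9.84). Per MANE length NOTCH2 (14.3) stood beside HES1 (13.8) in WT HEK293T cells.

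In WT NPCs HES1 led with 26.9 ± 0.276 CPM per kb (SD, n = 2). NOTCH3 with 19.9 ± 1.57, JAG1 with 17.8 ± 4.07 and NOTCH2 with 14.4 ± 2.19 followed, each overlapping its neighbor within 1 SD, and then NOTCH1 with 3.93 ± 0.701 and HEY1 with 1.70 ± 0.406. DLL3 (0.436 ± 0.130 CPM per kb), HES5 (0.185 ± 0.0428), JAG2 (0.157 ± 0.0189) and DLL1 (0.112 ± 0.0698) were lowest, the last 3 without a difference beyond their spread. In KO NPCs NOTCH2 (19.04 ± 0.8502 CPM per kb), HES1 (18.3 ± 2.57), NOTCH3 (16.6 ± 2.03) and JAG1 (14.9 ± 2.09) were highest and overlapped in this order. There DLL3 (0.779 ± 0.162) and JAG2 (0.406 ± 0.146) stood above or beside HEY1 (0.365 ± 0.0160), which they did not in WT NPCs. With the length of the MANE transcript in place of all merged exons, HES1 still led WT NPCs with 35.2 CPM per kb. The mean of JAG1 (27.8 ± 6.38) was then above those of NOTCH3 (21.5 ± 1.70) and NOTCH2 (21.1 ± 3.21), but overlapped both within 1 SD.

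Each gene's share of the summed per-kb level of its role shows the same contrast. JAG1 made up 6.09% ± 1.06 (SD, n = 3) of the 4 ligands in WT HEK293T cells and 96.2% ± 0.101 (SD, n = 2) in WT NPCs. NOTCH2 made up 65.5% ± 1.92 of the 3 receptors in WT HEK293T cells and 37.7% ± 5.80 in WT NPCs, where NOTCH3 held 52.0% ± 3.99. HEY1 held 83.6% ± 3.57 of the 3 targets in WT HEK293T cells, and HES1 held 93.5% ± 1.52 in WT NPCs. In KO NPCs the share of NOTCH2 was 49.4% ± 1.61 and that of NOTCH3 43.0% ± 1.95. The order of these receptors in WT NPCs depends on the length used: per MANE length NOTCH3 held 45.1% ± 4.11 and NOTCH2 44.2% ± 6.16, within their spread. These shares carry no test.

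**Figure D2:**
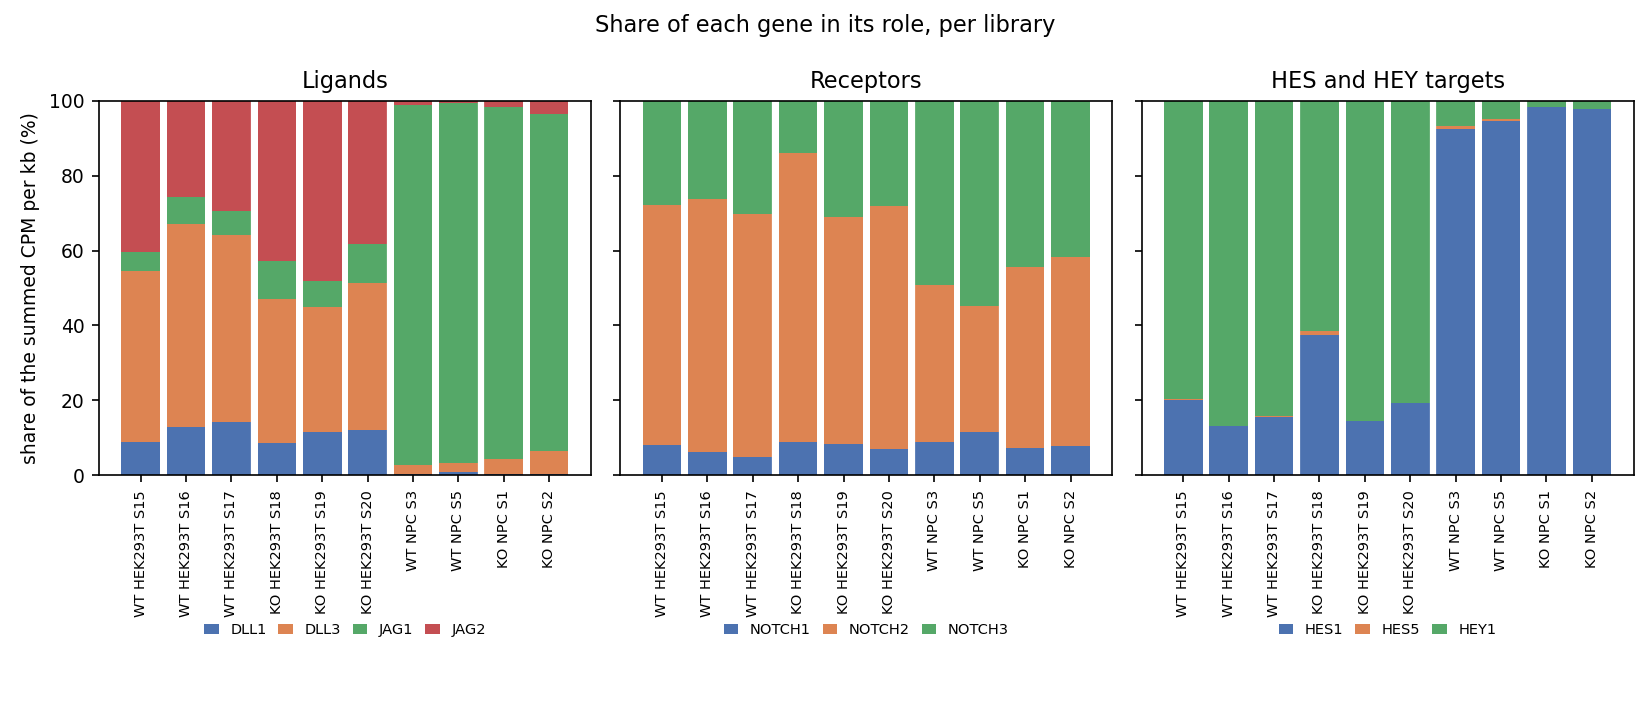
Share of each gene in the summed CPM per kb of its role (%), with 1 stacked bar per library. The 4 NPC libraries hold at least 90.2% JAG1 among ligands and at least 92.4% HES1 among targets, and KO HEK293T library S18 holds less NOTCH3 (13.8%) and more HES1 (37.5%) than the other HEK293T libraries.

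In HEK293T cells the question was whether loss of ZNF274 changes these genes. The 6 HEK293T libraries were fitted by themselves, and of 19018 genes 0.478% were called higher and 0.0105% lower. Of the 10 Notch genes 0 were called and 0 had an unadjusted P value below 0.05 in edgeR, and DESeq2 and voom called 0. Their median log2 FC was 0.18, against 0.01 over all genes, with 6 of 10 above 0.

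JAG1 had the largest log2 FC of the ligands and receptors, with 4.73, 2.41 and 3.94 CPM in KO libraries (log2 FC 0.66, 95% confidence interval -0.03 to 1.34, adjusted p = 0.724). KO library S19 lay within the WT range. JAG2 was at 13.7, 11.6 and 9.999 CPM in KO libraries (log2 FC 0.41, 95% confidence interval -0.23 to 1.05, adjusted p = 0.817), with WT library S15 among them. DLL3 (log2 FC -0.39, 95% confidence interval -0.96 to 0.18) and DLL1 (log2 FC -0.09, 95% confidence interval -0.74 to 0.56) overlapped between groups.

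NOTCH2 was the most even of the 10 genes, at 168, 165 and 166 CPM in KO HEK293T libraries, all within the WT range, and its interval was the narrowest (log2 FC 0.03, 95% confidence interval -0.23 to 0.29). NOTCH1 was at 14.5, 16.7 and 13.6 CPM (log2 FC 0.33, 95% confidence interval -0.16 to 0.83). NOTCH3 was at 16.9, 47.4 and 40.4 CPM, with S18 below all WT libraries and S19 above them (log2 FC -0.17, 95% confidence interval -0.83 to 0.48). Without S18 its log2 FC was 0.16.

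HES1 was at 46.2, 19.7 and 25.0 CPM in KO HEK293T libraries (log2 FC 0.48, 95% confidence interval -0.14 to 1.09, adjusted p = 0.775). Library S18 was the highest of the 6 and S19 lay within the WT range, and without S18 the log2 FC was 0.04. HES5 had 20, 0 and 4 counts in KO libraries, so S18 held most of them (adjusted p = 0.816), and without S18 the fitted log2 FC was -0.51. HEY1 was at 202, 309 and 279 CPM (log2 FC -0.19, 95% confidence interval -0.57 to 0.18, adjusted p = 0.857), with S19 and S20 inside the WT range.

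In NPCs HEY1 fell in the KO, and it was the only 1 of the 10 genes called. The 4 NPC libraries were fitted by themselves, and of 20577 genes 8.45% were called higher and 8.36% lower, so 1 of 10 is near the share of all genes. HEY1, which encodes a repressor related to the HES proteins, was at 10.9 and 7.73 CPM in WT and at 1.94 and 2.06 CPM in KO libraries. Both KO libraries lay well below both WT libraries, 4.69-fold lower (log2 FC -2.23, standard error 0.303, adjusted p = 0.00212). The call held in each of the alternatives tried, in which the log2 FC was -2.46 to -1.96 and the adjusted p 1.66e-11 to 0.0272. The WT NPC libraries that enter this comparison also enter the comparison of cell types.

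The other targets were also lower in both KO NPC libraries, without reaching both thresholds. HES1 was at 55.01 and 55.8 CPM in WT and at 41.3 and 33.8 CPM in KO NPCs. The groups did not overlap, and the decrease was 1.49-fold, under the FC threshold (log2 FC -0.57, standard error 0.145, adjusted p = 0.0245). Without KO library S1 or S2 its adjusted p was 0.0638 or 0.198. HES5 had 6 and 4 counts in WT and 0 counts in both KO libraries (adjusted p = 0.0824, not called). Its mean WT level was 1.64 times the floor of 3 counts per KO library, a ratio that leaves out the counting error in WT.

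No ligand was called in KO NPCs. JAG1 was at 138 and 192 CPM in WT and at 152 and 125 CPM in KO libraries, which overlapped (log2 FC -0.27, 95% confidence interval -0.69 to 0.16, adjusted p = 0.312). JAG2 was at 1.09 and 0.922 CPM in WT and at 1.94 and 3.26 CPM in KO libraries, without overlap (log2 FC 1.35, 95% confidence interval 0.30 to 2.39, adjusted p = 0.0609). It was called without WT library S3 (adjusted p = 0.0270) and when all 10 libraries were fitted together (adjusted p = 0.0396). DLL3 was at 0.903 and 1.38 CPM in WT and at 1.74 and 2.34 CPM in KO libraries (log2 FC 0.82, 95% confidence interval -0.23 to 1.87, adjusted p = 0.214). DLL1 had 5 and 12 counts in WT and 6 and 5 counts in KO libraries, too few to set its direction (95% confidence interval -2.71 to 1.33 in log2 FC, adjusted p = 0.597), and without WT library S5 its log2 FC was 0.12 in place of -0.69.

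No receptor was called in KO NPCs. NOTCH2 was at 268 and 216 CPM in WT and at 329 and 309 CPM in KO NPCs (log2 FC 0.39, 95% confidence interval 0.08 to 0.69, adjusted p = 0.0647). NOTCH1 was at 43.0 and 55.4 CPM in WT and at 37.6 and 35.9 CPM in KO NPCs (log2 FC -0.44, 95% confidence interval -0.81 to -0.06, adjusted p = 0.0824). NOTCH3 was at 177 and 197 CPM in WT and at 170 and 143 CPM in KO NPCs (log2 FC -0.27, 95% confidence interval -0.58 to 0.03, adjusted p = 0.159). In all 3 receptors the groups did not overlap, with NOTCH2 higher and NOTCH1 and NOTCH3 lower in both KO libraries. The share of all genes without overlap is not given here, so this separation does not set the receptors apart from other genes. In the same edgeR fit 8300 of 20577 genes had an unadjusted P value below 0.05. Over the 10 genes the median log2 FC was -0.35, against -0.02 over all genes, and 3 of 10 lay above 0.

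**Figure D3:**
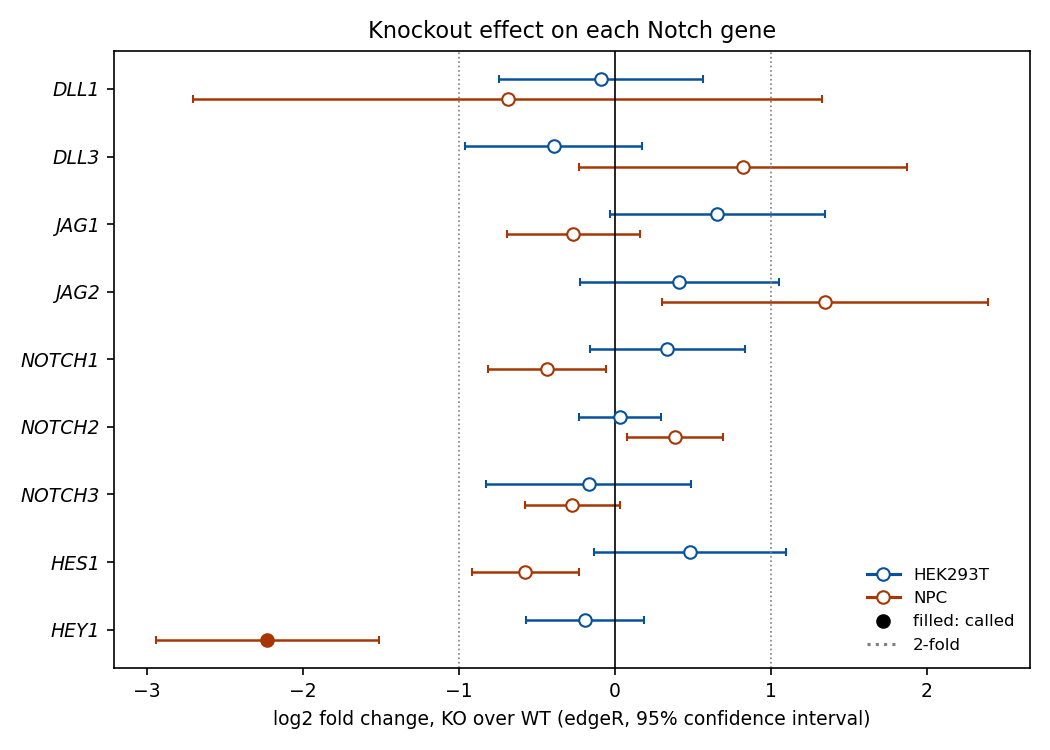
KO effect (log2 FC, KO over WT) on 9 Notch genes in HEK293T cells and NPCs, with 95% confidence intervals from edgeR; filled points were called and dotted lines mark 2-fold. HEY1 in NPCs, at -2.23, is the only filled point; HES5 is left out because its KO NPC libraries have 0 counts.

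To ask whether NPCs and HEK293T cells respond differently to the KO, an interaction contrast was fitted to the 10 libraries. Of its 19255 genes, 6.01% were called with a higher effect in NPCs and 6.22% with a lower one. HEY1 was the only 1 of the 10 genes called (log2 difference of the effects -2.02, standard error 0.316, adjusted p = 0.00133), and 9 were not. For HES1 the log2 difference was -1.03 (95% confidence interval -1.92 to -0.15, adjusted p = 0.109) and for JAG1 -0.89 (95% confidence interval -1.64 to -0.14, adjusted p = 0.102). DLL3 had a log2 difference of 1.24 (95% confidence interval 0.20 to 2.27, adjusted p = 0.101) and NOTCH1 one of -0.75 (95% confidence interval -1.44 to -0.07, adjusted p = 0.130). Without KO HEK293T library S19 the genes called were JAG1, HES1, HES5 and HEY1, 4 in place of 1. That setting leaves S18, where HES1, JAG1 and HES5 were highest, as 1 of 2 KO HEK293T libraries.

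KO NPCs were also set against KO HEK293T cells in the same fit, where 23.7% of genes were called higher and 16.2% lower in NPCs. The contrast of cell types seen in WT was kept for 7 of the 8 genes called there. JAG1 was 37.9-fold higher, and the log2 FC was 1.30 for NOTCH1 and 2.16 for NOTCH3. HEY1 was 131-fold lower (log2 FC -7.03, standard error 0.284, adjusted p = 2.48e-09), and DLL1, DLL3 and JAG2 were lower with log2 FCs of -2.70, -1.03 and -2.17. For DLL3 this is close to the FC threshold, and the call was lost in 5 of 16 alternatives, among them those without S18 or KO NPC library S1 (log2 FC -0.87 and -0.83). HES1, called higher in WT NPCs, was not called between KO cells (log2 FC 0.31, 95% confidence interval -0.31 to 0.94, adjusted p = 0.372). Over 16 alternatives its log2 FC was 0.05 to 0.75, under the FC threshold throughout. KO HEK293T library S18 held 46.2 CPM of HES1, against 19.7 and 25.0 CPM in S19 and S20. HES5 was called lower in KO NPCs (adjusted p = 0.0481). Its mean in KO HEK293T cells was 2.27 times the floor of 3 counts per KO NPC library, without the counting error in HEK293T cells. That call was lost in 10 of 15 alternatives, among them the fit without S18, which holds 20 of the 24 HES5 counts in KO HEK293T cells (adjusted p = 0.172). NOTCH2 was 1.92-fold higher (adjusted p = 3.39e-05), under the FC threshold, which it passed with DESeq2 (log2 FC 1.01).

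The wider pathway was described with a list of 62 genes in 10 roles, the 10 genes included. In HEK293T cells 57 were tested, and 0 were called, with 1 at an unadjusted P value below 0.05 (DESeq2 and voom also called 0). In NPCs 57 were tested, 4 were called higher and 7 lower, and the median log2 FC was -0.22, against -0.02 over all genes. Called with no FC threshold were 26 of the 57, against 5888 of 20577 genes. With the threshold, 8.45% of all genes were called higher and 8.36% lower, so the counts of 4 and 7 are near the share of all genes. Without KO library S1 these counts were 2 and 4, and without KO library S2 the higher count was 2. The ligand, receptor, gamma-secretase and corepressor roles had 0 calls of 5, 4, 6 and 7 genes tested.

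Among pathway targets 8 were tested in NPCs, all had a log2 FC below 0, and 3 were called lower: HEY1, HES6 and NRARP. Counts of HES5 were 6 and 4 in WT and 0 in both KO libraries. Those of HEY2 were 11 and 2 in WT and 6 and 5 in KO libraries, which overlapped. Such counts are too few to resolve a KO effect on HES5 or HEY2. Of all genes tested 8.36% were called lower. The median log2 FC was -1.35 over the 8 targets and -0.02 over all genes. NRARP, which encodes a feedback inhibitor that binds the receptor's intracellular domain, was at 10.8 and 7.27 CPM in WT and at 2.44 and 3.62 CPM in KO NPCs (log2 FC -1.59, standard error 0.331, adjusted p = 0.0121). HES6, which encodes a HES protein linked to neuronal differentiation, was at 14.97 and 13.3 CPM in WT and at 3.73 and 5.92 CPM in KO NPCs (log2 FC -1.56, standard error 0.278, adjusted p = 0.00637). Both genes had a lower KO effect in NPCs than in HEK293T cells by the interaction term (adjusted p = 0.00745 for NRARP and adjusted p = 0.0430 for HES6). Without KO NPC library S1 neither was called in NPCs, and HEY1 was.

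DLK1, which encodes a noncanonical ligand without the receptor-activating DSL domain, fell from 20.1 and 69.7 CPM in WT to 3.48 and 1.51 CPM in KO NPCs (log2 FC -4.19, standard error 0.657, adjusted p = 0.00382). Of 8 endocytic and ubiquitin regulators 3 were called lower (DTX1, DTX3 and DTX4) and 0 higher, where 8.36% and 8.45% of all genes were called. The median log2 FC over the 8 regulators was -0.10, with 4 above 0. DTX1, DTX3 and DTX4 encode Deltex ubiquitin ligases, and DTX2, the other Deltex gene on the list, was not called (log2 FC 0.41, 95% confidence interval -0.14 to 0.95). DTX4 was at 189 and 203 CPM in WT and at 22.3 and 20.9 CPM in KO NPCs (log2 FC -3.19, standard error 0.119, adjusted p = 2.26e-05). DTX1 was at 5.04 and 1.79 CPM in WT and at 0.696 and 1.01 CPM in KO NPCs (log2 FC -2.01, adjusted p = 0.0394) and was not called without S1, S2 or S3 or with voom, and DTX3 had a log2 FC of -1.12 (adjusted p = 0.00219).

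Of the 4 pathway genes called higher in KO NPCs, ADAM10 was the only 1 called with each library left out in turn. NEURL1B was lost without S1, S2 or S5, MAML2 without S1 or S3, and LFNG without S2. ADAM10, which encodes the protease that makes the ligand-dependent cut in the receptor, was at 87.7 and 87.3 CPM in WT and at 217 and 196 CPM in KO NPCs (log2 FC 1.23, standard error 0.110, adjusted p = 0.000404). NEURL1B, an E3 ligase for ligand endocytosis, had a log2 FC of 1.17 (adjusted p = 0.00825), the glycosyltransferase gene LFNG one of 1.08 (adjusted p = 0.0175) and the coactivator gene MAML2 one of 1.04 (adjusted p = 0.00837). By the interaction term ADAM10 (log2 difference 1.07, adjusted p = 0.00588) and POFUT1, which adds O-fucose to the receptor (log2 difference 1.13, adjusted p = 0.0114), had a higher KO effect in NPCs. Normalized by library size alone, LFNG and MAML2 were not called in NPCs, and neither ADAM10 nor POFUT1 was called by the interaction term, a setting that shifted the median of all genes by -0.11 in NPCs and by -0.21 for the interaction.

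**Figure D4:**
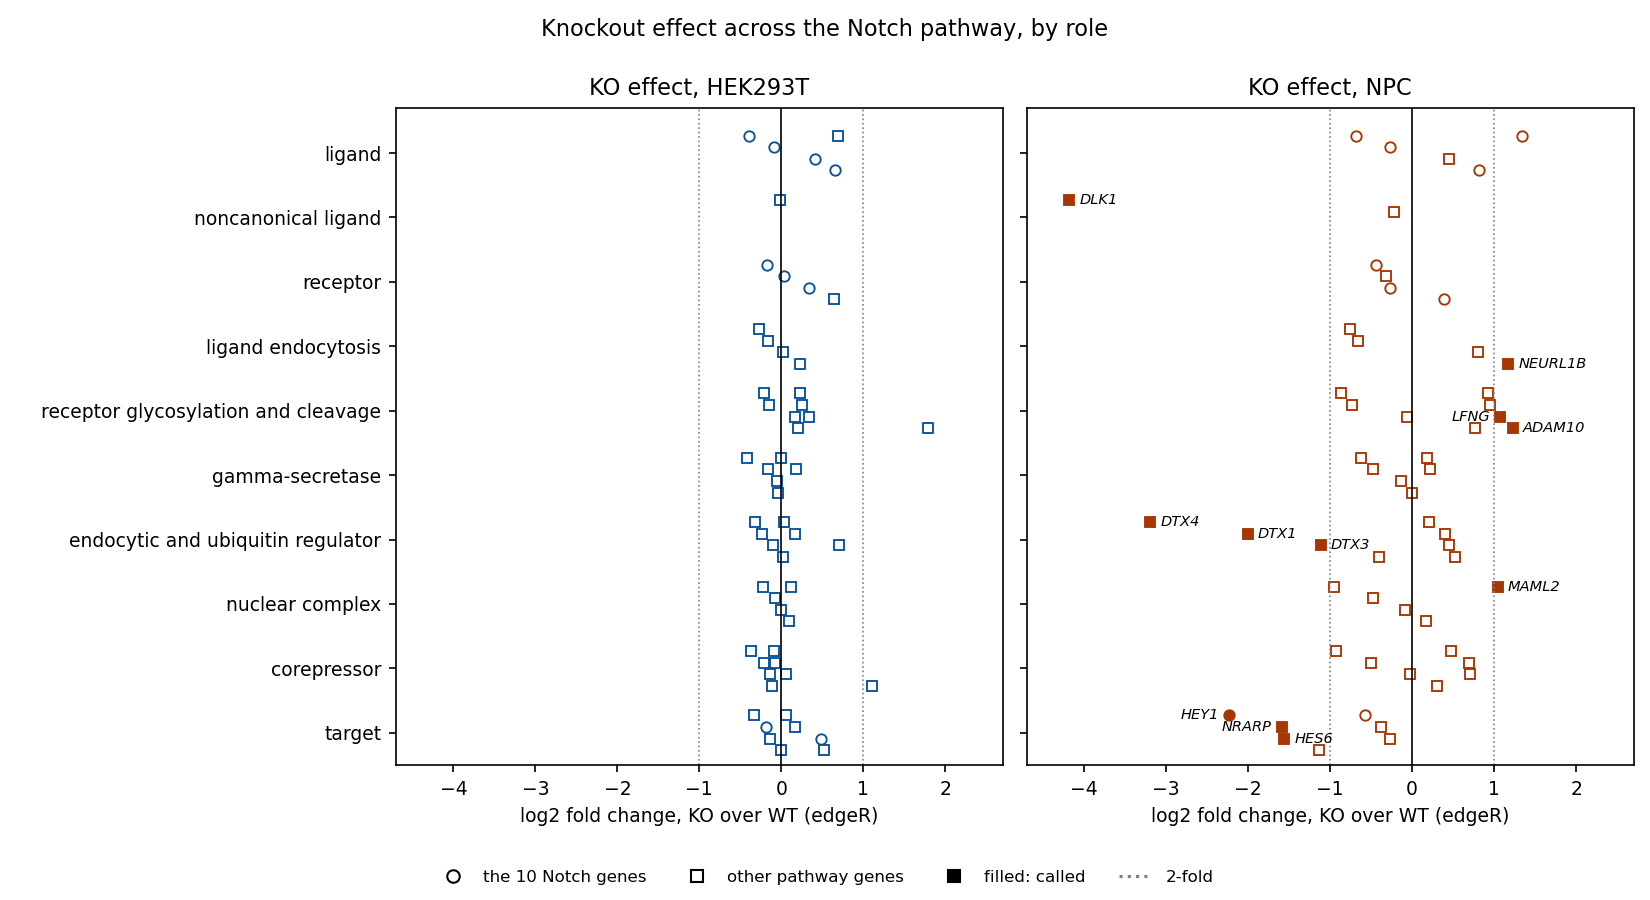
KO effect (log2 FC, KO over WT, edgeR) on the tested pathway genes by role, in HEK293T cells (left) and NPCs (right); circles are the 10 Notch genes, squares the others, filled symbols were called and HES5 is left out. The HEK293T panel has 0 filled symbols, and the NPC panel has 7 filled symbols left of -1 and 4 right of 1.

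Between WT cell types 16 pathway genes were called higher and 14 lower in NPCs, of 58 tested, where 25.2% and 15.5% of all genes were called. Between KO cell types the counts were 15 and 18, beside 23.7% and 16.2% of all genes. The non-members with the largest differences were DTX4, DTX3 and DLK1, which were at or under 3 counts in each WT HEK293T library and were at least 1894-fold, 367-fold and 435-fold higher in WT NPCs, with those libraries set at the floor. The bound for DLK1 leans on WT NPC library S5, with 69.7 CPM against 20.1 CPM in S3. MAML2 was higher with a log2 FC of 5.13 (adjusted p = 5.47e-08). The corepressor gene TLE2 had 0 counts in every NPC library and was at least 7.94-fold lower in WT NPCs. HEY2, the closest relative of HEY1, was lower like HEY1 (log2 FC -5.06, adjusted p = 2.17e-06), DLL4 was at least 5.55-fold lower, and DLK2 had a log2 FC of -3.18 (adjusted p = 0.0107). Between KO cells DTX4, DTX3 and DLK1 were at least 166-fold, 136-fold and 19.2-fold higher in NPCs, MAML2 had a log2 FC of 6.28, TLE2 and DLL4 were at least 17.8-fold and 9.28-fold lower, and HEY2 and NRARP had log2 FCs of -5.49 and -3.44. The bound for TLE2 leans on S18, which held 4.77 CPM, against 1.22 and 1.97 CPM in S19 and S20.

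The protein-coding genes whose log2 CPM (offset 0.1 CPM) followed each Notch gene most closely over the 10 libraries, among 12471 genes with a mean of at least 1 CPM, had Pearson correlations of 0.950 to 0.998. These correlations are a description, and the points share cell type, which separates the libraries for most of these genes. For the targets they were PHKA1 and ITGB3BP for HEY1, ZNF385A and TLE5 for HES1, and AMIGO1 and AGAP2 for HES5. For the ligands they were ZIC1 and ZNF718 for JAG1, TDRD7 and PHYHD1 for JAG2, DMC1 and FBXO32 for DLL1, and POLE4 and C2orf76 for DLL3. For the receptors they were MAPK8IP3 and IRAK3 for NOTCH1, GDF5 and FOXS1 for NOTCH2, and SANBR and VPS8 for NOTCH3. HES5 had 0 to 6 counts in every library but S18, which held 20, so its correlations rest on values near the floor.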

How the data were processed

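The authors used HISAT2 to align stranded mRNA reads (build hg19) and featureCounts to count those that mapped uniquely, on genes and transposable elements, per the paper's methods and the submitters' processing notes; tool versions and the annotation were not given in the sources used here. The deposited values are raw counts per gene, in one table of 6 HEK293T libraries (22750 genes) and one of 4 NPC libraries (20965 genes). Library totals of 18621266 to 32285876 limit the precision of low genes, and floors cover counting error only, in the group set at the floor. Genes with a total count of at least the number of libraries were tested with edgeR 4.0.16 (quasi-likelihood F-test, TMM) in R 4.3.3, with Benjamini-Hochberg adjustment over all genes tested. KO effects were fitted within each cell type, and the interaction and the comparisons of cell types over all 10 libraries, which therefore share libraries. DESeq2 1.42.0 and voom (limma 3.58.1), other normalizations, filters and thresholds, and leaving out each library were alternatives. The study's methods used voom, which was run here as an alternative. Fits were tested on simulated data. Exonic lengths are merged hg19 exons. All 10 Notch genes were named. Of the other pathway genes, up to 4 per comparison and direction with the largest absolute log2 FC among those called were named, and for each Notch gene the 2 with the highest Pearson correlation. DTX3 and HES6, named through other comparisons, also have their NPC values given. The members and the lists were chosen with earlier results of these data known. Figures were drawn with matplotlib 3.10.9. The level of 1 marker gene is not reported here.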

Additional observations from a re-analysis of the deposited data

Results flagged for a closer look

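The KO effect differed between NPCs and HEK293T cells for 5 of the 58 pathway genes tested by the interaction term of edgeR over all 10 libraries, 2 with a higher and 3 with a lower effect in NPCs, where 6.01% and 6.22% of all genes were called. The log2 difference of the effects, NPC minus HEK293T, was -2.02 for HEY1 (adjusted p = 0.00133), -1.60 for HES6 (adjusted p = 0.0430) and -1.56 for NRARP (adjusted p = 0.00745). It was 1.13 for POFUT1 (adjusted p = 0.0114) and 1.07 for ADAM10 (adjusted p = 0.00588). HEY1 was called under all 16 alternatives run, with a log2 difference of -2.26 to -1.75. Without KO NPC library S1, HEY1 was the only 1 of these 5 genes still called, and without KO HEK293T library S18, HES6, POFUT1 and ADAM10 were not called.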

How the results depend on the processing

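Between WT cell types the 8 calls among the 10 genes were kept under every alternative run, and NOTCH2 was added with no FC threshold. In KO NPCs the count of lower genes was 2 with no FC threshold (HES1 and HEY1), and the count of higher genes was 1 with all 10 libraries in one fit (JAG2) and 0 to 1 with a library left out. The count with a lower KO effect in NPCs than in HEK293T cells was 1 to 4 with a library left out. Between KO cell types the count lower in NPCs was 3 with voom, with DESeq2 size factors and at an adjusted p below 0.01, and 3 to 5 with a library left out. HES5 in KO HEK293T cells had a log2 FC of -0.0022 with voom and of -0.51 to 2.27 with a library left out, and NOTCH3 one of -0.45 to 0.16. DLL1 in KO NPCs ranged from -1.22 to 0.12, and its difference between cell types from -1.11 to 0.22. The difference for NOTCH3 was 0.009 with voom and -0.42 to 0.17 with a library left out. Over all genes, calls numbered 93 in HEK293T cells (164 with DESeq2, 61 at an adjusted p below 0.01, 44 without WT library S16) and 3459 in NPCs (5888 with no FC threshold, 2225 at an adjusted p below 0.01, 2084 without KO library S1). The interaction called 2354 genes, 1224 at an adjusted p below 0.01 and 1455 and 1531 without KO NPC library S1 or S2. Pathway genes called in KO NPCs numbered 11 higher and 15 lower of 57 with no FC threshold, where 5888 of 20577 genes were called. With library size alone 2 pathway genes were higher. For the interaction, pathway genes numbered 0 higher and 6 lower with library size alone, 5 higher with no FC threshold or without WT HEK293T library S15, 5 lower with DESeq2 or without KO HEK293T library S20, 6 lower without S19, and 1 lower without KO NPC library S1. The comparison of KO cell types, the MANE length and the alternatives for the wider pathway and for all genes were chosen after seeing the data. No paired analysis was possible because the groups share no replicate numbers. With 2 or 3 libraries per group and at most 20 counts of HES5 in a library and 12 of DLL1 in NPCs, KO effects on these genes were not resolved.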
